A study of Mus musculus with 8 samples.

Results

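Amino acid transporters carry amino acids and their relatives across cell membranes. Their genes were followed here in kidney cells of mice with chronic kidney disease. The set was defined by name: rows of the count table with a symbol in the families Slc1a, Slc3a, Slc6a, Slc7a, Slc36a, Slc38a or Slc43a, or equal to Slc16a10, without Slc7a13. Of 67 symbols of that kind among 25240 in the table, 66 remained without Slc7a13. In all, 47 had 10 or more counts in at least 4 of the 8 libraries and are the members described here. They were taken in whatever direction they moved. Slc7a6os matches by its name but encodes no transporter, and Slc43a3 carries purine bases and not amino acids.

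All 8 libraries came from p16-tdTomato mice given a diet high in adenine, which damages the tubules, and no library of an untreated animal was used. The genotype's name joins p16, a cell cycle inhibitor made from Cdkn2a and used to mark senescent cells, with a red fluorescent protein, tdTomato. The sources used here do not describe the construction of this reporter, the sorting of the cells, or the animals' age and sex. The titles name 4 Tomato-negative and 4 Tomato-positive libraries, and each of the identifiers CKD523_2, CKD523_3, CKD627_1 and CKD627_2 is shared by 1 library of each group. Values per library are given in that order of identifiers throughout. What the prefixes CKD523 and CKD627 stand for is not said. The labels do not say that libraries came from separate animals, so the spread behind the p-values is that between samples and may be technical.

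Filtered amino acids are taken back almost completely by the proximal tubule. Sodium-coupled carriers and exchangers in the luminal brush border bring them into the cell, and exchangers and uniporters in the basolateral membrane let them out toward the blood. The luminal carriers are staggered along the tubule: Slc6a19, the neutral amino acid carrier that is defective in Hartnup disorder, works mainly in its early part, and its relative Slc6a18 further down. Other members feed the cell itself, among them the glutamine and alanine carriers of the SLC38 family, the arginine carrier Slc7a1 and the leucine exchanger Slc7a5, and several of these are known targets of the amino acid response led by the transcription factor ATF4.

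Of the 47 members, 34 had a promoter window in the RefSeq table (GRCm38.p6, 250 bases before to 50 after each gene start). The 100 bases just before the GENCODE gene start are shown for the members that passed the test between the Tomato groups and had a window. The same stretch of Slc7a11, the cystine and glutamate exchanger, is added because it holds the ATF4 motif searched for. Capitals mark matches to the antioxidant response element core (TGACNNNGC) or, in Slc7a11, to the composite element of C/EBP and ATF factors (TGATGNAA), on either strand.
Slc38a2 (chr15:96699731-96699830, minus strand): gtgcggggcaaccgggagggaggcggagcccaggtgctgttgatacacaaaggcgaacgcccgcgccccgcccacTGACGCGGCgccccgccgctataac
Slc7a1 (chr5:148399905-148400004, minus strand): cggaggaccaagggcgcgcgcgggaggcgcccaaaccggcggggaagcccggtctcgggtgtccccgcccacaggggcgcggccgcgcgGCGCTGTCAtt
Slc38a4 (chr15:97055957-97056056, minus strand): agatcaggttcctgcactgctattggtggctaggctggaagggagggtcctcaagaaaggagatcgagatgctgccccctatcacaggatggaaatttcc
Slc6a13 (chr6:121300127-121300226, plus strand): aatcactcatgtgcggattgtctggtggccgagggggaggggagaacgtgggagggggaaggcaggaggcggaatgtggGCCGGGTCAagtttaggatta
Slc7a11 (chr3:50443615-50443714, minus strand): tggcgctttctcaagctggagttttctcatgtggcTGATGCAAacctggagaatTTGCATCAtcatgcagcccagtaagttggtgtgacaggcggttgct
The stretch of Slc38a2 holds its match on the plus strand of the gene, those of Slc7a1 and Slc6a13 hold theirs on the opposite strand, and Slc38a4 has no match to either motif in this stretch. Slc7a11 holds TGATGNAA on both strands. In the full windows of 300 bases, TGATGNAA was found in 3 of 34 members (8.82%: Slc1a4, Slc7a11 and Slc7a7) and in 4.51% of 27025 genes. TGACNNNGC was found in 6 of 34 members (17.6%: Slc36a1, Slc38a2, Slc6a13, Slc6a9, Slc7a1 and Slc7a6) and in 14.0% of all genes. The first part of the HNF1 site (GTTAATNAT) was in none of the 34 windows and in 0.940% of all genes. These are matches of letters in a window and are not measured binding.

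Library totals ran from 13474439 to 19886202 counts, so that 1 CPM (a count scaled to its library's total) stood for 13.5 to 19.9 counts. The tdTomato transgene was at 86.5, 79.5, 159 and 121 CPM in the negative libraries and 4041, 3167, 3651 and 4143 CPM in the positive libraries (log2 5.08 ± 0.21 (SE), adjusted p = 2.71e-05), which matched all 8 labels. Cdkn2a itself was rare, between 0.285 and 2.87 CPM (log2 0.21 ± 0.88 (SE), adjusted p = 0.911). The labels name the cell type as proximal tubular epithelial cell. Its 15 markers were present in all 8 libraries with summed levels of 4797 to 23957 CPM, but 8 markers of the loop of Henle summed to 1814 to 15133 CPM and 8 markers of the collecting duct's principal cells to 217 to 5648 CPM. In such bulk samples, fewer cells of a type and less RNA per cell cannot be told apart.

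Levels can be compared between genes only per length, here as mean CPM over the 8 libraries per 1000 bases of exons (GENCODE M21). Slc3a2, the heavy chain that brings several exchangers to the basolateral membrane, was at the top with 100.01 CPM per kb. The luminal heavy chain Slc3a1 followed at 75.8, the basolateral exchanger Slc7a7 at 70.1, Slc6a19 at 60.8 and the creatine carrier Slc6a8 at 57.7 CPM per kb. The taurine carrier Slc6a6 reached 50.7, Slc7a8 47.8, the luminal light chain Slc7a9 44.8, Slc6a18 38.4 and Slc38a2 36.6 CPM per kb. The upper ranks were filled by carriers of both sides of the proximal tubule and by those of taurine and creatine. At the other end stood Slc6a14 at 0.197 and Slc7a11 at 0.0647 CPM per kb. All members together took between 0.241% of the counts (negative library of CKD627_1) and 0.558% (negative library of CKD523_2).

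Of the 47 members, 39 had 10 or more counts in all 8 libraries. The other 8 (Slc7a3, Slc7a11, Slc38a3, Slc6a4, Slc7a15, Slc6a14, Slc38a11 and Slc7a12) fell short in 1 library or more, and none passed through the libraries of 1 Tomato group only. Slc6a14, Slc7a11 and Slc38a11 lay just inside the minimum. Slc6a14 had 10 or more counts in 3 negative and 2 positive libraries, Slc7a11 and Slc38a11 in 2 negative and 3 positive ones. Just outside the minimum were Slc1a7 and Slc6a7, each with 10 or more counts in 2 libraries. Among the other symbols below the minimum were Slc7a10, Slc6a16, Slc6a5, Slc6a19os, Slc6a2, Slc6a3, Slc1a6, Slc36a2, Slc38a5, Slc43a1 and Slc6a21, with at most 27 counts in any library. A last group, Slc36a1os, Slc7a14, Slc36a3, Slc6a11 and Slc38a8, had no count in any of the 8 libraries, so that each lay under 3 counts (0.223 CPM in the smallest library, counting error only).

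Between Tomato-negative and Tomato-positive cells, 5 of the 47 members changed. Slc7a1, Slc38a2 and Slc38a4 rose in Tomato-positive cells, and Slc6a18 and Slc6a13 fell. The comparison was paired by identifier (edgeR's quasi-likelihood test with Benjamini-Hochberg adjustment over 14329 genes, threshold 0.05), and values after ± are standard errors (SE) of log2 differences unless SD is written. The 3 higher members stand against 3.8% of all genes called higher, and the 2 lower members against 3.79% called lower. The members' shares, 6.38% and 4.26%, were near that background. The members' median log2 difference was -0.06, beside 0.005 over all genes tested, and 20 of 47 members had a positive difference. Without the pairing no member passed, beside 0.593% of all genes. Then 7 members had an unadjusted p under 0.05 (3 higher and 4 lower), beside 17.8% of all genes, against 10 (5 and 5), beside 24.9%, with it. The counts were 2 higher and 3 lower with upper-quartile factors (3.36% and 4.2% of all genes) and with limma-voom (4.69% and 5%). DESeq2 gave 3 and 5 (6.77% and 7.36%), which added Slc38a10, Slc38a3 and Slc7a12 to the lower members. They were 1 and 1 without CKD523_2 (1.95% and 1.86% of all genes) and 0 and 1 without CKD523_3 (0.663% and 0.698%). Leaving out CKD627_1 gave 2 and 4 (4.61% and 4.65%), and leaving out CKD627_2 gave 0 and 2 (1.32% and 1.41%).

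**Figure D1:**
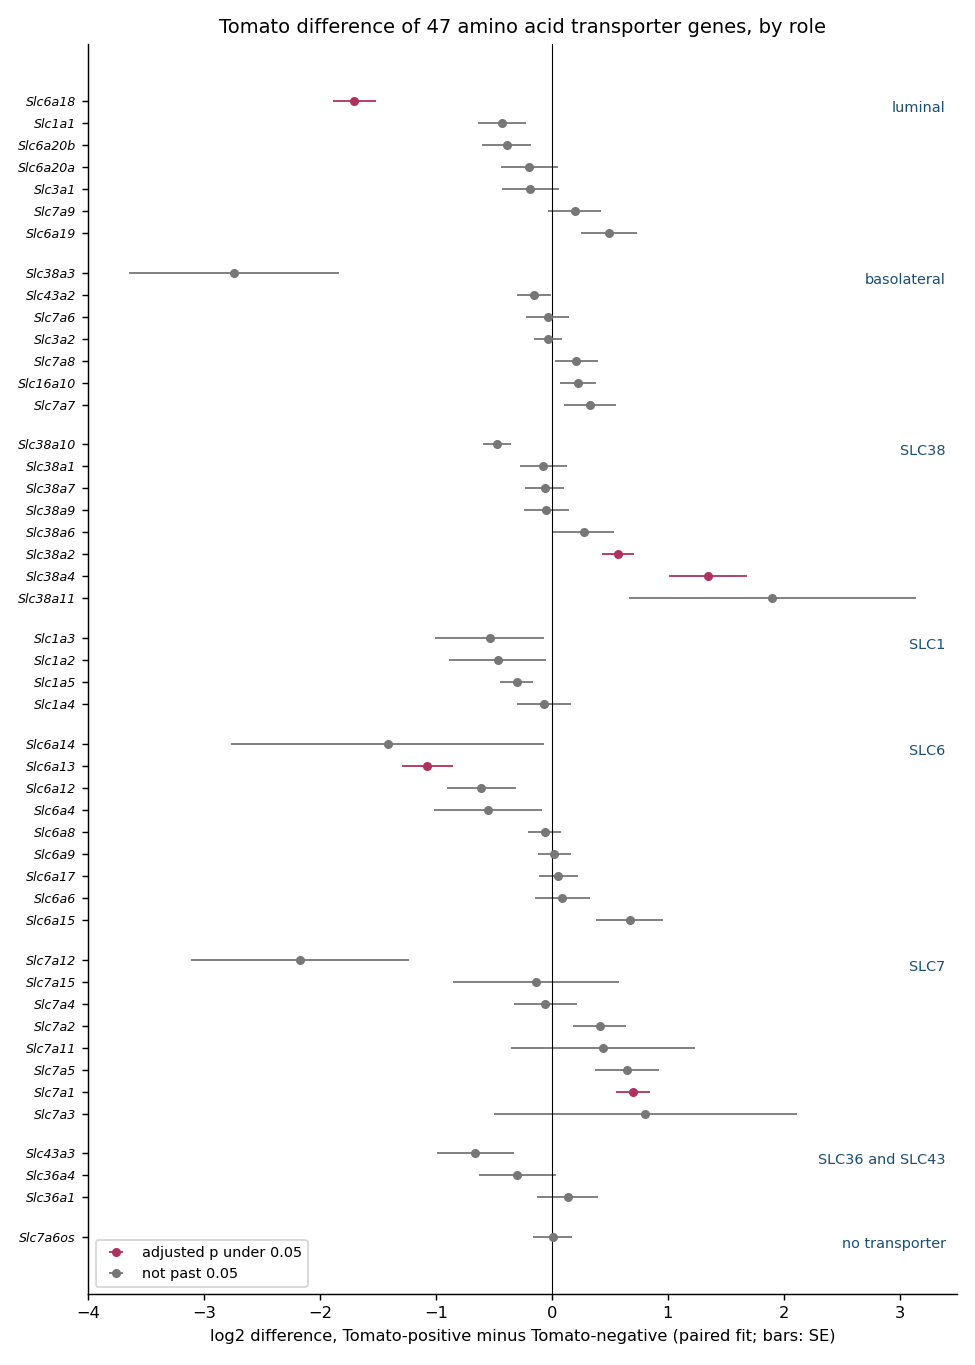
Fitted log2 difference between Tomato-positive and Tomato-negative libraries for each of the 47 genes (horizontal axis; points right of 0 are higher in Tomato-positive cells), grouped by role, with bars for the SE of the paired fit. Coloured points passed an adjusted p of 0.05: Slc6a18 (-1.71) and Slc6a13 (-1.07) on the left, Slc38a2 (0.57), Slc7a1 (0.70) and Slc38a4 (1.35) on the right, while the widest bars belong to genes of very low counts such as Slc6a14 and Slc7a3.

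The luminal uptake group held 7 members, and the taurine carrier Slc6a6 and the creatine carrier Slc6a8 were not placed in it. Slc6a18 fell and the other 6 did not pass (none of them at an unadjusted p under 0.05, nor with DESeq2 or limma-voom). Slc6a18 (chr13:73661752-73678023, minus strand, build mm10) takes up neutral amino acids such as glycine and alanine. It was at 414, 445, 81.9 and 122 CPM in the negative libraries and 101, 112, 36.7 and 44.4 CPM in the positive libraries. In each of the 4 pairs the positive library was lower. The negative library of CKD627_1 was below both positive libraries of CKD523, so the groups as a whole overlapped, and the fall shows within each prefix. The fitted log2 difference was -1.71 ± 0.19 (SE), adjusted p = 0.00238 (95% bounds -2.13 to -1.28), a 3.26-fold lower level. It was -2.09 within CKD523 and -1.34 within CKD627, and passed in both. It also passed whichever identifier was left out. Only the fit without pairing gave an adjusted p above the threshold (0.179) among the 17 alternative fits.

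Slc6a19, the gene next to Slc6a18 (chr13:73679745-73704865, minus strand, 1721 bases away and on the same strand), gave other values. It was at 519.7, 367, 78.4 and 141 CPM in the negative libraries and 489, 373, 173 and 294 CPM in the positive libraries. Positive and negative libraries of CKD523 lay close together, while in both CKD627 pairs the positive library was the higher. Over all pairs the log2 difference was 0.49 ± 0.24 (SE), adjusted p = 0.244. Within CKD627 alone Slc6a19 rose (1.07 ± 0.25 (SE), adjusted p = 0.00107), and within CKD523 the value was -0.11 ± 0.11 (SE), adjusted p = 0.597. The ratio of Slc6a18 to Slc6a19 counts, looked at after the values of both had been seen, was 0.796, 1.21, 1.05 and 0.867 in the negative libraries and 0.206, 0.300, 0.212 and 0.151 in the positive ones. This ratio takes no account of gene length. It averaged 0.980 ± 0.186 (SD, n = 4) in the negative and 0.217 ± 0.0618 (SD, n = 4) in the positive libraries, without overlap, and differed little between the prefixes. It was lower in 4 of 4 pairs (mean log2 difference -2.20, exact sign-flip test, 2-sided, p = 0.125, the smallest that 4 pairs allow).

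The cystine and dibasic amino acid exchanger is a pair of Slc3a1 and Slc7a9, both named in cystinuria. Slc3a1 was at 308, 337, 52.8 and 92.6 CPM in the negative libraries and 199, 191, 73.4 and 123 CPM in the positive libraries (log2 -0.19 ± 0.25 (SE), adjusted p = 0.684). Slc7a9 was at 233, 156, 32.8 and 63.4 CPM in the negative libraries and 177, 139, 62.9 and 96.1 CPM in the positive libraries (log2 0.20 ± 0.23 (SE), adjusted p = 0.643). In both genes the positive library was lower in the CKD523 pairs, where both fell (-0.80 ± 0.12 (SE), adjusted p = 1.7e-07 for Slc3a1 and -0.36 ± 0.12 (SE), adjusted p = 0.0212 for Slc7a9), and higher in the CKD627 pairs. The ratio of Slc3a1 to Slc7a9 counts, also looked at after the fact, was 1.32, 2.16, 1.61 and 1.46 in the negative libraries and 1.12, 1.38, 1.17 and 1.27 in the positive ones. It was lower in the positive library of all 4 pairs (mean log2 difference -0.39, exact sign-flip test, 2-sided, p = 0.125, the smallest possible), although the ranges of both groups overlap.

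Slc1a1, the aspartate and glutamate carrier of the brush border, was at 278, 271, 65.6 and 100.4 CPM in the negative libraries and 148, 157, 64.2 and 113 CPM in the positive libraries (log2 -0.43 ± 0.21 (SE), adjusted p = 0.246). Slc6a20b, one of the mouse's paired imino acid carriers, was at 123, 116, 20.8 and 36.1 CPM in the negative libraries and 77.3, 61.5, 23.0 and 38.3 CPM in the positive libraries (log2 -0.39 ± 0.21 (SE), adjusted p = 0.295). Its neighbour Slc6a20a, 2204 bases away, was at 19.5, 14.8, 4.30 and 7.36 CPM in the negative libraries and 14.2, 10.6, 4.85 and 8.45 CPM in the positive libraries (log2 -0.19 ± 0.24 (SE), adjusted p = 0.668). All 3 were lower in the positive libraries of CKD523 and about level in those of CKD627. Slc6a20a and Slc6a20b are close copies, and the split of reads between them is uncertain because the sources used here do not give the counting rule.

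**Figure D2:**
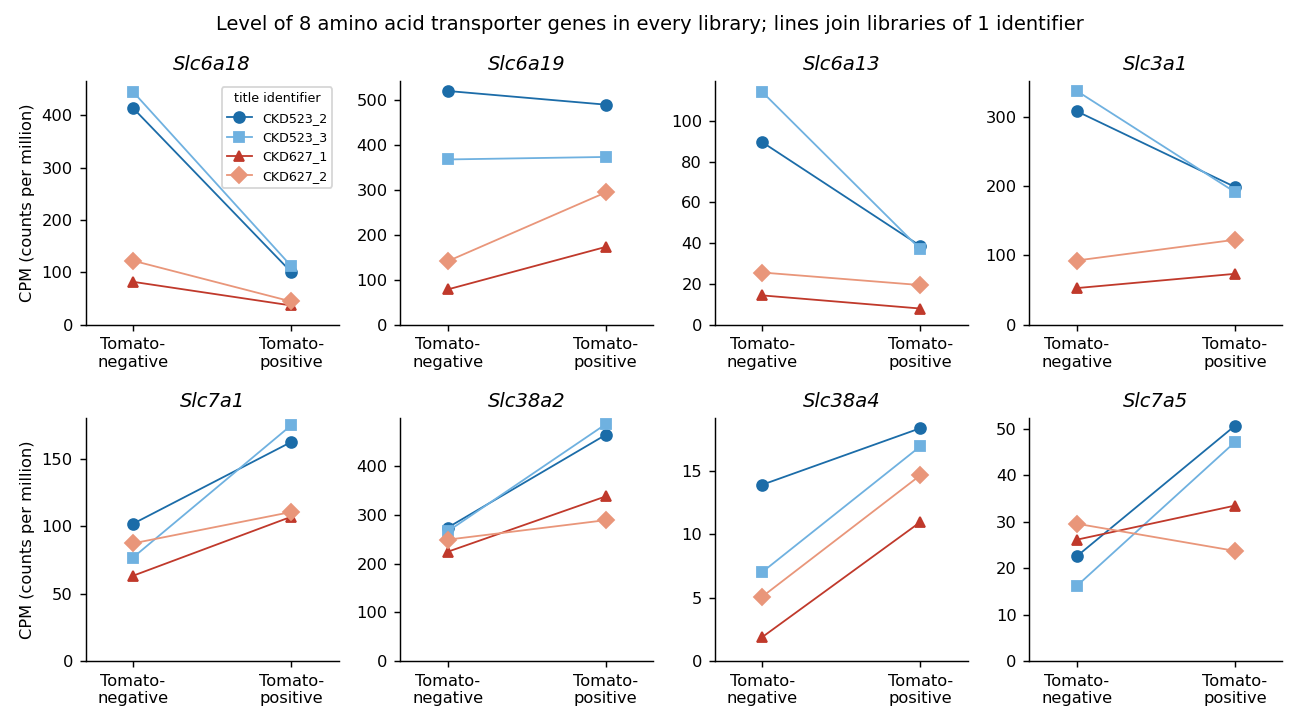
CPM (vertical axis, from 0, a different scale in each panel) of 8 genes in the Tomato-negative and Tomato-positive library of each identifier, with lines joining the libraries of 1 identifier, CKD523 in blue and CKD627 in red. All 4 lines of Slc6a18 and Slc6a13 go down and all 4 lines of Slc7a1, Slc38a2 and Slc38a4 go up, whereas the blue and red lines of Slc6a19, Slc3a1 and Slc7a5 part.

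Basolateral exit and exchange was represented by 7 members, and none passed the paired edgeR test. Slc38a3 had an unadjusted p under 0.05 and passed with DESeq2, and none passed with limma-voom. Slc3a2 was at 425, 378, 301 and 301 CPM in the negative libraries and 422, 410.3, 289.9 and 297 CPM in the positive libraries, almost the same in every pair (log2 -0.03 ± 0.12 (SE), adjusted p = 0.904, 95% bounds -0.31 to 0.25). Slc7a7, which swaps dibasic for neutral amino acids and is defective in lysinuric protein intolerance, was at 383, 328, 68.2 and 109.7 CPM in the negative libraries and 360.0, 285, 133 and 192 CPM in the positive libraries (log2 0.33 ± 0.23 (SE), adjusted p = 0.404). It rose within CKD627 alone (0.85 ± 0.26 (SE), adjusted p = 0.0163). Slc7a8, its counterpart for neutral amino acids, was at 370.2, 311, 88.0 and 154 CPM in the negative libraries and 323, 316, 158 and 195 CPM in the positive libraries (log2 0.21 ± 0.18 (SE), adjusted p = 0.523). Both were higher in the positive library of each CKD627 pair and differed little in CKD523.

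The aromatic amino acid uniporter Slc16a10 was at 120.3, 98.9, 50.6 and 61.0 CPM in the negative libraries and 121, 106, 82.3 and 72.2 CPM in the positive libraries. By CPM it was higher in the positive library of 4 of 4 pairs but by little (log2 0.22 ± 0.16 (SE), adjusted p = 0.409). Within CKD523 the fitted log2 difference was -0.01 ± 0.12 (SE), so no rise showed there. Slc38a3, the glutamine carrier that supplies ammonia formation, was at 8.97, 5.96, 4.37 and 4.35 CPM in the negative libraries and 0.371, 2.83, 0 and 2.11 CPM in the positive libraries. Every positive library was below every negative one, which was true of 2 members, Slc38a3 and Slc38a10, beside 5.67% of all genes. Its log2 difference was the most negative of all members but rested on few counts (-2.74 ± 0.91 (SE), adjusted p = 0.104), with 0 counts in the positive library of CKD627_1. DESeq2 gave an adjusted p of 0.00114 for it. Slc43a2 (log2 -0.16 ± 0.14) and Slc7a6 (-0.04 ± 0.19) completed the group.

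Among 8 other SLC38 genes, which couple neutral amino acid uptake to sodium or work in organelles, 2 rose. Slc38a2 (chr15:96687392-96699730, minus strand) is the widespread alanine and glutamine carrier that cells raise when amino acids are short. It was at 273, 266, 224 and 249 CPM in the negative libraries and 463, 485, 337 and 289 CPM in the positive libraries. All positive libraries lay above all negative ones, and the gap was wider in CKD523. The log2 difference was 0.57 ± 0.14 (SE), adjusted p = 0.0427 (95% bounds 0.25 to 0.89). Its adjusted p was 0.160 without CKD523_2, 0.217 without CKD523_3, 0.0787 without CKD627_2 and 0.0582 with upper-quartile factors, and 0.206 without pairing. In CKD627 alone it did not pass (0.37 ± 0.25 (SE), adjusted p = 0.394).

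Slc38a4 (chr15:96994820-97055956, minus strand), 295089 bases from Slc38a2, carries neutral and cationic amino acids and is best known from liver. It was at 13.9, 7.02, 1.91 and 5.09 CPM in the negative libraries and 18.3, 16.9, 11.0 and 14.6 CPM in the positive libraries. Every pair rose, from a level of only a few CPM in CKD627, and the groups overlapped at 1 negative library (CKD523_2). The log2 difference was 1.35 ± 0.34 (SE), adjusted p = 0.0443 (95% bounds 0.59 to 2.11), and it passed within each prefix (0.76 in CKD523 and 1.97 in CKD627). Its adjusted p was 0.147 without CKD523_3, 0.0567 without CKD627_1, 0.158 without CKD627_2, 0.0501 with limma-voom, 0.0512 with the prefix as a covariate in place of the pairing and 0.334 with neither. Slc38a1, which lies next to Slc38a2 on the same chromosome, was at 9.97, 12.9, 23.0 and 30.0 CPM in the negative libraries and 12.1, 14.1, 24.7 and 19.5 CPM in the positive libraries (log2 -0.07 ± 0.20 (SE), adjusted p = 0.862).

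Slc38a10 lay just outside the threshold with edgeR and passed with DESeq2. It was at 218, 252, 237 and 262 CPM in the negative libraries and 166, 182, 184 and 186 CPM in the positive libraries, lower in the positive library of every pair and with no overlap between the groups (log2 -0.47 ± 0.12 (SE), adjusted p = 0.0527). Slc38a9, the lysosomal member that reports arginine to mTORC1, had a log2 difference of -0.05 ± 0.20, and Slc38a7, which lets glutamine out of lysosomes, one of -0.06 ± 0.17. For Slc38a6 and Slc38a11 the values were 0.28 ± 0.26 and 1.90 ± 1.24, the latter from 0 to 3.11 CPM.

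In the SLC7 family, 1 of 8 members outside the groups above rose. Slc7a1 (chr5:148327410-148399904, minus strand) is the main carrier of arginine and lysine into most cells. It was at 102, 76.8, 63.3 and 87.3 CPM in the negative libraries and 162, 175, 107 and 111 CPM in the positive libraries. As with Slc38a2, all positive libraries exceeded all negative ones; these were the 2 members that did so, beside 7.11% of all genes. The log2 difference was 0.70 ± 0.15 (SE), adjusted p = 0.0271 (95% bounds 0.36 to 1.04), a 1.62-fold higher level. Its adjusted p was 0.0834 without CKD523_2, 0.166 without CKD523_3, 0.0590 without CKD627_2 and 0.183 without pairing. In CKD627 alone it did not pass (0.51 ± 0.26 (SE), adjusted p = 0.224).

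Slc7a5, the leucine and tryptophan exchanger that pairs with Slc3a2, was at 22.6, 16.2, 26.1 and 29.6 CPM in the negative libraries and 50.6, 47.1, 33.5 and 23.7 CPM in the positive libraries. It rose in both CKD523 pairs (1.28 ± 0.18 (SE), adjusted p = 2.86e-08) and showed no shared direction in CKD627 (-0.01 ± 0.30 (SE), adjusted p = 0.986), which left a pooled value of 0.65 ± 0.27 (SE), adjusted p = 0.185. Slc7a11 was close to undetected, at 0.57, 0.234, 0.984 and 1.34 CPM in the negative libraries and 0.445, 1.19, 1.44 and 1.01 CPM in the positive libraries (log2 0.44 ± 0.79 (SE), adjusted p = 0.777). At that depth its 95% bounds ran from -1.36 to 2.24, so that a difference of that size was not detectable. Slc7a2, a second arginine carrier, had a value of 0.41 ± 0.23 and was higher in 4 of 4 pairs. Slc7a12 fell within CKD523 (-2.97 ± 0.53 (SE), adjusted p = 9.68e-06) and had -2.18 ± 0.94 over all pairs. Slc7a3, Slc7a4 and Slc7a15 had log2 differences of 0.81 ± 1.31, -0.06 ± 0.27 and -0.14 ± 0.72.

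The SLC6 members not placed in the luminal group carry osmolytes, creatine and transmitters, and 1 of the 9 fell. Slc6a13 (chr6:121300227-121337733, plus strand) takes up GABA, taurine and betaine. It was at 89.6, 114, 14.4 and 25.6 CPM in the negative libraries and 38.7, 37.0, 7.94 and 19.5 CPM in the positive libraries. The positive library was lower in 4 of 4 pairs, by more in CKD523 (-1.50) than in CKD627 (-0.65); the test of that difference gave an adjusted p of 0.262. Over all pairs the log2 difference was -1.07 ± 0.22 (SE), adjusted p = 0.0228 (95% bounds -1.57 to -0.58), a 2.11-fold lower level. Its adjusted p was 0.0751 without CKD523_2, 0.119 without CKD523_3, 0.0546 with the prefix as a covariate in place of the pairing and 0.378 with neither. In CKD627 alone it did not pass (adjusted p = 0.24).

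Slc6a12, the betaine carrier 5342 bases from Slc6a13, was at 7.83, 11.8, 4.61 and 3.88 CPM in the negative libraries and 5.20, 8.82, 2.23 and 3.27 CPM in the positive libraries, also lower in 4 of 4 pairs (log2 -0.61 ± 0.30 (SE), adjusted p = 0.245). Slc6a6, the taurine carrier, was at 526, 579, 188 and 414 CPM in the negative libraries and 444, 442, 404 and 435 CPM in the positive libraries (log2 0.09 ± 0.24 (SE), adjusted p = 0.854). It lay between 404 and 579 CPM in 7 of the 8 libraries and was lowest in the negative library of CKD627_1. Slc6a8, the creatine carrier, was at 413, 394, 187 and 232 CPM in the negative libraries and 403, 326, 212 and 238 CPM in the positive libraries (log2 -0.06 ± 0.14 (SE), adjusted p = 0.824). Slc6a15, a carrier of branched-chain amino acids and proline known from neurons, was higher in 4 of 4 pairs and rose within CKD627 (1.34 ± 0.39 (SE), adjusted p = 0.0131), with 0.67 ± 0.29 (SE), adjusted p = 0.189 over all pairs. The glycine carrier Slc6a9 and Slc6a17 had log2 differences of 0.02 ± 0.14 and 0.05 ± 0.17, and the serotonin carrier Slc6a4 and the broad carrier Slc6a14, both rare here, -0.55 ± 0.47 and -1.42 ± 1.35.

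Among the SLC1 genes not placed in the luminal group none of 4 passed with edgeR, DESeq2 or limma-voom. None had an unadjusted p under 0.05. Slc1a5, a glutamine carrier of dividing cells, was at 36.7, 53.4, 113 and 139 CPM in the negative libraries and 35.1, 46.5, 100.2 and 91.1 CPM in the positive libraries (log2 -0.31 ± 0.14 (SE), adjusted p = 0.212). It was lower in the positive library of all 4 pairs, by far less than the gap between prefixes. Slc1a4, a serine and alanine carrier, had a log2 difference of -0.07 ± 0.23, and the glutamate carriers Slc1a2 and Slc1a3 had -0.47 ± 0.42 and -0.54 ± 0.47. The proton-coupled carriers Slc36a1 and Slc36a4 and the purine base carrier Slc43a3 had 0.14 ± 0.26, -0.30 ± 0.34 and -0.66 ± 0.33. Slc7a6os, which is no transporter, had 0.01 ± 0.17.

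Each prefix holds 2 pairs, and the prefixes were also tested on their own, with 1 residual degree of freedom each. With so few pairs the test borrows its estimate of spread from all genes. The p-values within a prefix, throughout, therefore rest mostly on that shared spread and little on a gene's own spread between pairs. In CKD523 alone 4 members rose (Slc7a1, Slc38a2, Slc7a5 and Slc38a4; background 10.6% of all genes) and 12 fell (background 11.9%), which is 25.5% of the members. Those 12 were Slc6a18, Slc3a1, Slc7a9, Slc1a1, Slc6a20b, Slc6a13, Slc6a6, Slc36a1, Slc38a3, Slc38a10, Slc1a2 and Slc7a12, so 5 of the 7 luminal carriers were among them. In CKD627 alone 4 members rose (Slc6a19, Slc7a7, Slc6a15 and Slc38a4; background 5.26%) and 2 fell (Slc6a18 and Slc38a3; background 4.37%). The median log2 difference of the luminal carriers was -0.80 in CKD523, where 0 of 7 were positive, and 0.15 in CKD627, where 6 of 7 were.

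**Figure D3:**
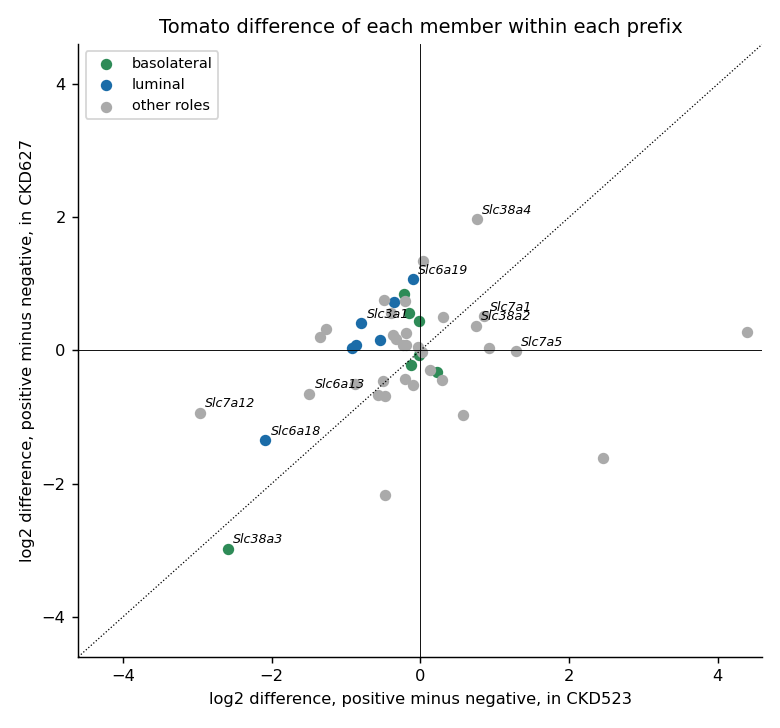
Log2 difference between Tomato-positive and Tomato-negative libraries in CKD523 (horizontal axis) and in CKD627 (vertical axis), 1 point per gene, with luminal carriers in blue, basolateral ones in green and the rest in grey; the dotted line marks equal values. All 7 luminal points lie above the dotted line, and Slc6a18 and Slc38a3 are low on both axes. Slc7a5 lies at 1.28 on the horizontal and -0.01 on the vertical axis.

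The difference between those differences was tested directly (CKD627 minus CKD523). With edgeR no member passed, beside 0.14% of all genes. With DESeq2 7 members passed (2.79% of all genes) and with limma-voom 2 (0.447%), and 16 had an unadjusted p under 0.05 in the edgeR fit (15 positive and 1 negative), beside 13.8% of all genes. The smallest adjusted p values, picked out after they had been seen, belonged to Slc6a19 (difference of differences 1.20 ± 0.21 (SE), adjusted p = 0.0736), Slc3a1 (1.23 ± 0.22 (SE), adjusted p = 0.0737) and Slc7a7 (1.10 ± 0.21 (SE), adjusted p = 0.0899). For all 7 luminal carriers the value was positive, between 0.73 and 1.23, and for Slc7a5 it was -1.27 ± 0.32 (SE), adjusted p = 0.147. No member passed without CKD523_2 (0.014% of all genes) or without CKD523_3 (0.551%), but 9 passed without CKD627_1 (3.64%) and 18 without CKD627_2 (19.2%). The 15 proximal tubule markers had a median of 0.99 in the same contrast, and 3 of them (Lrp2, Cubn and Slc5a12) passed with edgeR. The median of the luminal carriers was 0.99. The part of these markers in the members' difference of differences was not tested.

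More members differed in level between the prefixes than between the Tomato groups, in separate tests. With the counts of both libraries of an identifier added, 2 identifiers stood against 2, and 23 of 47 members were lower in CKD627 (48.9%; background 13.5%) and 3 were higher (6.38%; background 9.74%). The members' median log2 difference was -0.66, beside -0.002 over all genes. Counted by library, all CKD627 libraries lay below all CKD523 libraries in 19 members (40.4%; background 7.19%) and above them in 3 (6.38%; background 14.9%). All 7 luminal carriers were lower in CKD627, with log2 differences between -2.15 and -1.42. Of the basolateral members 4 of 7 were lower, namely Slc7a7, Slc7a8, Slc16a10 and Slc3a2.

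The smallest p among the lower members belonged to Slc6a18 (-2.15 ± 0.16 (SE), adjusted p = 2.82e-05), followed by Slc6a13 (-2.25 ± 0.26 (SE), adjusted p = 0.000214), Slc6a20b (-1.86 ± 0.22 (SE), adjusted p = 0.00024), Slc1a4 (-1.44 ± 0.17 (SE), adjusted p = 0.000269) and Slc3a1 (-1.77 ± 0.22 (SE), adjusted p = 0.000316). The 3 higher members were Slc1a5 (1.16 ± 0.17 (SE), adjusted p = 0.000648), Slc38a1 (0.78 ± 0.20 (SE), adjusted p = 0.0159) and Slc43a3 (1.14 ± 0.31 (SE), adjusted p = 0.0238). None of these 3 belongs to the luminal group. Slc1a5 was the clearest, between 35.1 and 53.4 CPM in all CKD523 libraries and between 91.1 and 139 CPM in all CKD627 libraries. With the Tomato-positive libraries only, 17 members were lower (7.65% of all genes) and 1 was higher (5.99%).

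Markers of the proximal tubule moved in the same way. All 15 were lower in CKD627, with a median log2 difference of -1.79, and their summed level was 14229 to 23957 CPM in CKD523 and 4797 to 7842 CPM in CKD627. The summed luminal carriers stood at 1895, 1708, 337 and 563 CPM in the negative libraries and at 1205, 1044, 438 and 717 CPM in the positive ones. Divided by the summed markers, the same libraries gave 0.0791, 0.0742, 0.0702 and 0.0825, and 0.0792, 0.0734, 0.0824 and 0.0915. That ratio was formed after the values had been seen, and it varied far less than either sum. Between the Tomato groups it was 0.0765 ± 0.00541 and 0.0816 ± 0.00755 (SD, n = 4 each; exact sign-flip test, 2-sided, p = 0.375). The sum joins carriers that moved apart: Slc6a18 fell (log2 -1.71 over all pairs), while Slc6a19 rose within CKD627 alone (1.07). Markers of endothelium (8 of 8), the loop of Henle (7 of 8, with 1 lower) and principal cells (7 of 8) were higher in CKD627. So were 5 of 8 markers of intercalated cells, 4 of 8 of the distal convoluted and connecting tubule, 3 of 8 of stroma and 1 of 5 of podocytes. Of 10 late proximal tubule markers 8 were lower and 1 higher, and of 7 tested leukocyte markers 2 were higher and 2 lower. Of all genes 9.74% were higher and 13.5% lower. The part of these markers in the members' differences was not tested.

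**Figure D4:**
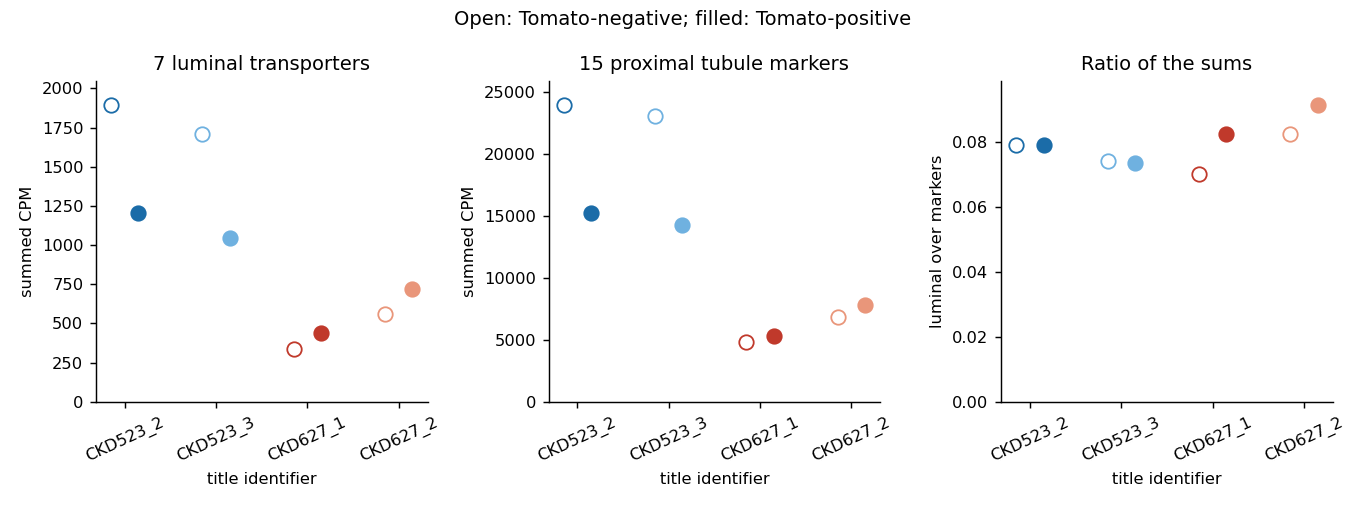
Summed CPM of the 7 luminal carriers (left), summed CPM of 15 proximal tubule markers (middle) and the ratio of both sums (right) for each identifier, with open points for Tomato-negative and filled points for Tomato-positive libraries; all axes start at 0. Both sums are higher in every CKD523 library than in any CKD627 library, while the ratio stays between 0.0702 and 0.0915.

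Between the Tomato groups the marker lists differed from each other. Of the 15 proximal tubule markers 4 fell and none rose (median log2 difference -0.21). In CKD523 alone 13 of the 15 fell (median -0.83), beside 11.9% of all genes. In CKD627 alone 2 rose and 1 fell (median 0.20), beside 5.26% and 4.37% of all genes. The named ones were Slc22a6 (-1.70 ± 0.22 (SE), adjusted p = 0.00464), the organic anion carrier, Miox (-0.90 ± 0.18 (SE), adjusted p = 0.0224), which breaks down inositol, and Slc27a2 (-0.86 ± 0.21 (SE), adjusted p = 0.0413), a fatty acid carrier. Of 10 markers of the late proximal tubule 7 fell and 1 rose (median -1.94), led by Slc7a13 (-3.46 ± 0.23 (SE), adjusted p = 0.000536), Napsa (-2.21 ± 0.16 (SE), adjusted p = 0.00058) and Kap (-3.18 ± 0.27 (SE), adjusted p = 0.00112), while Cyp7b1 rose (1.16 ± 0.25 (SE), adjusted p = 0.026). Their summed level was 6737, 9893, 3797 and 3895 CPM in the negative libraries and 1092, 1775, 941 and 1389 CPM in the positive ones, so that the groups did not overlap. Slc7a13, a cystine and acidic amino acid exchanger that shares its heavy chain Slc3a1 with Slc7a9, was left out of the members by the rule. The early marker Slc5a2, the glucose carrier, was named after its values had been seen. It was at 930.1, 757, 124 and 211 CPM in the negative libraries and 1083, 956, 299 and 468 CPM in the positive libraries, higher in 4 of 4 pairs (log2 0.70 ± 0.21 (SE), adjusted p = 0.0809). Of other genes among the 15 proximal tubule markers, Slc5a12 had a log2 difference of 0.61 ± 0.28 (SE). Lrp2 had -0.08 ± 0.30, Cubn -0.09 ± 0.30 and Slc34a1 -0.17 ± 0.18, and none of these passed. The values of these markers stand beside those of Slc6a18 and Slc6a19, and their part in the members' differences was not tested.

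Of the lists for other segments and cells, all 8 principal cell markers rose (median 1.55). In the loop of Henle 5 of 8 fell (-1.10), in the list of the distal convoluted and connecting tubule 4 of 8 (-1.19) and among intercalated cells 3 of 8 (-0.70), with none higher. Of 7 tested leukocyte markers Cd68 rose (1.40 ± 0.25 (SE), adjusted p = 0.0152), and Cd3e was at 0 in all libraries. With edgeR none of 8 endothelial, 5 podocyte and 8 stromal markers passed. Among the stromal ones 3 had an unadjusted p under 0.05 and 2 passed with DESeq2. The summed principal cell markers went from 217 to 2461 CPM in the negative libraries and from 1018 to 5648 CPM in the positive ones.

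Partners of the transporters and peptide carriers were taken as the first of 4 lists around the members, and none of its 10 genes passed between the Tomato groups with edgeR, DESeq2 or limma-voom (median -0.22; 2 had an unadjusted p under 0.05). Cltrn, the partner that Slc6a19 and Slc6a18 need at the kidney's brush border, was at 1486, 1509, 429 and 475 CPM in the negative libraries and 1018, 912, 424 and 532 CPM in the positive libraries (log2 -0.32 ± 0.18 (SE), adjusted p = 0.318). The peptide carrier Slc15a2 had -0.39 ± 0.15 (SE), adjusted p = 0.16 and the lysosomal cystine carrier Ctns 0.05 ± 0.18 (SE), adjusted p = 0.895.

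Genes of the amino acid response were tested as 28 symbols, of which 1 rose and 1 fell (median -0.07). Psat1, an enzyme of serine synthesis, rose (0.61 ± 0.14 (SE), adjusted p = 0.0382), and Cth, which makes cysteine from cystathionine, fell (-1.14 ± 0.20 (SE), adjusted p = 0.0146). Atf4 itself (0.06 ± 0.18 (SE), adjusted p = 0.885), Asns (-0.25 ± 0.29 (SE), adjusted p = 0.634), Trib3 (-0.83 ± 0.60 (SE), adjusted p = 0.435) and Chac1 (-1.45 ± 0.63 (SE), adjusted p = 0.199) did not pass. Within CKD523 alone 8 of the 28 rose (10.6% of all genes did) and 3 fell (11.9% of all genes). Within CKD627 alone none rose (5.26% of all genes did) and 3 fell (4.37%).

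Of 35 tested genes of amino acid sensing by mTORC1, 2 rose and 1 fell (median 0.01). Sesn3, a sestrin that restrains mTORC1, was among the higher genes (1.22 ± 0.17 (SE), adjusted p = 0.00615). Lamtor4, part of the lysosomal anchor, fell (-0.61 ± 0.16 (SE), adjusted p = 0.0491). The list for amino acid breakdown and conversion had 41 tested genes, of which 13 fell and none rose (20 passed with DESeq2 and 17 with limma-voom; median -0.46, beside -0.06 for the transporters and 0.005 for all genes). Among them were Bhmt2 (-2.51 ± 0.30 (SE), adjusted p = 0.00296), which remakes methionine, Hpd (-3.54 ± 0.55 (SE), adjusted p = 0.00917), which breaks down tyrosine, and Bcat2 (-0.96 ± 0.16 (SE), adjusted p = 0.0111), which starts the breakdown of branched-chain amino acids. Bcat2 was the exception among these 3 in being higher in the negative libraries of CKD627 (144 and 109 CPM) than in those of CKD523 (57.9 and 70.2 CPM). In CKD523 alone 33 genes of the breakdown list fell and 1 rose (median -0.64), beside 11.9% and 10.6% of all genes. In CKD627 alone 4 fell and none rose (median -0.34), beside 4.37% and 5.26% of all genes. By level, 27 were lower and 1 higher in CKD627, beside 13.5% and 9.74% of all genes. The breakdown list shares Cth with the amino acid response genes and Gatm with the proximal tubule markers. The part of cell types in its differences was not tested.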

How the data were processed

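RNA of 8 libraries from kidney cells, 4 Tomato-negative and 4 Tomato-positive, was extracted with Norgen's single cell kit, and libraries were prepared with NEBNext Ultra reagents, per the labels' protocols. The authors deposited raw counts per gene symbol. Their reads were aligned with subread, per the file headers, and mm10, edgeR 3.32.1 and limma 3.46.0 were used, per the submitters' processing notes. Counter, annotation, strand setting and the handling of multi-mapped reads: not given in the sources used here. Thus reads of overlapping or antisense genes and of close copies may be split wrongly. Coordinates and exon lengths came from GENCODE M21 and promoters from RefSeq, both on GRCm38, the build of mm10.

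Genes with 10 or more counts in at least 4 libraries (14329, 56.8% of symbols) were tested in R 4.3.3 with edgeR 4.0.16: TMM factors, quasi-likelihood, 2-sided, Benjamini-Hochberg over all of them, threshold 0.05, identifier as block. CPM values are counts scaled to a library's total, without TMM. SE is the log2 difference over the root of F. Levels of the prefixes were compared on counts summed per identifier, 2 against 2. Libraries of 1 identifier correlated across genes at 0.47, 0.32, 0.33 and 0.47 after removal of group means, above the limit of 0.1, and those with the other identifier of the prefix at 0.29 to 0.46, so the pairing may be mainly that of the prefix. Libraries of a group differed by more than counting error (chi-square over degrees of freedom 15.5 to 191), and each was counted as 1 sample. Intervals and floors from counts cover counting error only. The script was tested on simulated data.

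Members passing the test and 19 others chosen by role got full statistics, with up to 5 per direction for the prefixes and up to 3 per list and direction. Members, lists and tests were chosen with earlier results of these data known. Alternatives were other factors, filters, DESeq2 1.42.0, limma-voom (limma 3.58.1), single prefixes, no block, prefix as covariate and leaving out each identifier. Some genes that meet these rules are not reported here.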

Additional observations from a re-analysis of the deposited data

Results flagged for a closer look

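In 2 of 94 groups of 4 libraries, 1 library stood apart from the other 3 by Dixon's 95% limit for 4 samples, where chance flags about 1 group in 20. For Slc38a6, a relative of the glutamine carriers, the Tomato-positive library of CKD627_2 was at 24.6 CPM, beside 15.1 to 16.3 CPM in the other positive libraries. For Slc7a6os, the member that is no transporter, the Tomato-positive library of CKD523_2 was at 36.9 CPM, beside 27.5 to 28.8 CPM in the other positive libraries.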

How the results depend on the processing

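Without the replicate block, 0 members were higher (0.363% of all genes) and 0 lower (0.23%) in Tomato-positive libraries, in place of 3 and 2. The block changed no call of the members' difference between prefixes. That was 0 members with the block (0.14% of all genes) and 0 without it (0.014%). The lower members numbered 4 without a count minimum (3.93% of all genes), 5 with DESeq2 (7.36%) and 12 in CKD523 alone (11.9%). Leaving out an identifier gave 0 to 2 higher (0.663% to 4.61% of all genes) and 1 to 4 lower members (0.698% to 4.65%). The difference of Tomato differences passed in 7 members with DESeq2 (2.79%), in 2 with limma-voom (0.447%) and in 0 to 18 when an identifier was left out (0.014% to 19.2%). With Tomato-positive libraries only, 1 member was higher in CKD627 (5.99%) in place of 3. In CKD523 alone Slc6a6 (-0.39), Slc7a9 (-0.36) and Slc36a1 (-0.49) reversed and passed. The cause was not tested. Over 22 named members (Slc36a1 not among them) and up to 17 alternative fits, 319 of 372 values kept their direction and their side of the threshold, 18 changed sign with neither value past it, 23 no longer passed, 10 newly passed and 2 reversed and passed. Slc6a18 passed in 17 of 18 fits (log2 -2.09 to -1.34), Slc7a1 and Slc6a13 in 13, and Slc38a2 and Slc38a4 in 12. Slc7a3, Slc7a11, Slc7a15, Slc38a11 and Slc6a14 averaged at most 1.99 CPM, and depth limits what can be said of them.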
